A study of Zea mays with 24 samples.

Results

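In the maize (Zea mays) cultivar SS, 125 of the 50202 measured features had reads at a clear level while all 12 libraries of the cultivar ST had 0 reads for them. They were chosen by level: a value of 0 FPKM in every ST library and a group mean of at least 5 FPKM in at least 1 of the 4 SS groups, with miRNA genes left out (1 of these met the rest of the rule). FPKM is a level per length: fragments counted on a feature, divided by its length and by the library's total. The difference between SS and ST is therefore how the features were picked and is described here without a test. Plants with 3 leaves were given either water or a 100 mM salinity solution, and RNA was taken from roots and from young shoots. The 4 SS groups were roots under water, roots under salinity, shoots under water and shoots under salinity, and the same 4 groups were made in ST. Each group had 3 libraries, called biological replicates in the series text without saying which plants they came from, so p-values measure the spread between these libraries. Library totals recovered from the values ran from 19747198 to 28825226 reads. Names of genes could not be checked, tissue markers included, because 0 of the 44146 identifiers with the prefix Zm00001d matched the reference gene table. Members are therefore given by identifier only.

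Maize is known for lines that differ in gene content: a gene of one line can be missing, rearranged or strongly diverged in another. A read count of 0 in a cultivar can come from a gene that is missing, from a sequence too different to be matched to the reference, or from a gene that is present and silent. These cannot be told apart in RNA reads alone.

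The 125 features made up 0.618% of the 20231 features that reached 5 FPKM in an SS group. The mirrored rule found more features in the other direction, 198 of 20114, or 0.984%. Most features at the SS level, 19869 or 98.2%, had over 10 ST reads, and the others had 0 to 10. Beside the 125 features with 0 ST reads, 70 features at the same SS level had 1 read over the 12 ST libraries, 41 had 2 reads and 24 had 3. Just inside the level stood Zm00001d053888, with a highest group mean of 5.03 FPKM, and Novel00601, with 5.04 FPKM. Just below it stood Zm00001d004249 with 4.97 and Zm00001d051102 with 4.95 FPKM. On the other side of the rule, Zm00001d038913 reached 296 FPKM in SS roots under salinity and was left out because of 1 ST read, as was Novel00517, with 52.5 FPKM in SS shoots under water.

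**Figure D1:**
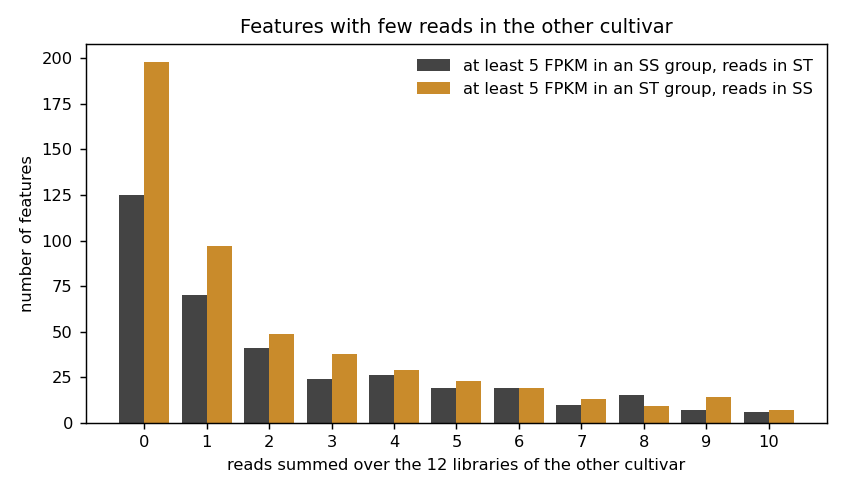
Number of features (y axis) by reads summed over the 12 libraries of the other cultivar (x axis), for features at 5 FPKM or more in an SS group (dark bars) or an ST group (light bars). The bar at 0 holds 125 features for SS and 198 for ST, and the bars fall to 70 and 97 at 1 read. Features with over 10 reads, 98.2% for SS and 97.5% for ST, are not drawn.

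The ST depth set a bound on each absence. A count of 0 in 293684739 ST reads allows up to 3 reads over the 12 libraries, a floor that covers counting error only. The floor makes no allowance for members having been picked for their count of 0, so the bounds may be too high. Set against that floor, the highest SS group mean was at least 42.7-fold higher for the member with the lowest ratio. It was at least 7498-fold higher for the one with the highest, and the median bound was 748. These ratios set the highest group of 3 SS libraries, a value the rule used, against all 12 ST libraries pooled. Against the matching ST group alone, which has fewer reads, each bound would be lower. Within SS the members rested on 54 to 11656 reads over the 12 libraries, with a median of 1438.

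Members differed in kind and length from other features at their level. Of the 125, 77 carried Zm00001d identifiers, 44 were transcript models added to the reference set (such as Novel00601), and 4 were ENSRNA features, a class of annotated noncoding RNAs. Added models were 35.2% of the members and 2.64% of all features at the SS level. Put the other way, 8.22% of the added models at the SS level had 0 ST reads, against 0.393% of the Zm00001d features. The mirrored rule for ST also took many added models, 98 of its 198 features. How these models were assembled, and from which libraries, is not stated in the sources used. Zm00001d members had a median recovered length of 567 bases, against 1565 bases for all Zm00001d features at the SS level. Added models among the members were closer to their class, with median lengths of 1086 against 1314 bases. At a given FPKM a short feature has fewer reads, so it meets a rule of 0 ST reads more easily. How far the shorter lengths follow from the rule was not tested. In 5 members the feature was shorter than the 150 bases of a sequencing read, and which transcripts gave those reads is not known. No neighbouring identifiers were seen among the Zm00001d members, whose closest pair of identifier numbers lay 8 apart.

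Most members had some reads throughout SS, at a low to moderate level. In 108 of the 125, every SS library had reads, and 41 members reached 5 FPKM in all 4 groups, 11 in 3 groups, 35 in 2 groups and 38 in a single group. Of the 20229 features at this level that were tested over the 12 SS libraries, 12359 reached it in all 4 groups and 1402 in a single group. Members thus reached the level in all 4 groups less often than other features, in a comparison that was not matched for level. The median member stood at 6.32 FPKM in roots under water, 5.66 in roots under salinity, 6.22 in shoots under water and 5.66 in shoots under salinity. The highest group mean of a member had a median of 9.16 FPKM, and 8 members averaged at least 20 FPKM over the 12 SS libraries. All members together took 0.0730% to 0.0883% of the reads of an SS library.

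The member with the highest mean over SS was Zm00001d038477, at 56.0 FPKM. Its values were 48.4, 50.4 and 47.5 FPKM in roots under water, 86.5, 84.4 and 79.9 in roots under salinity, 33.3, 25.0 and 26.9 in shoots under water and 66.4, 66.7 and 56.6 in shoots under salinity. In both tissues all 3 salinity libraries lay above all 3 water libraries. The rise was 0.77 on the log2(FPKM + 1) scale in roots (SE 0.04, limma adjusted p = 2.23e-06) and 1.13 in shoots (SE 0.10, limma adjusted p = 1.01e-05). Second was Zm00001d039648, at 41.6 FPKM over SS, which was mainly a root transcript. It stood at 113, 114 and 114 FPKM in roots under water and 28.5, 34.3 and 33.1 in roots under salinity. In shoots it stood at 9.39, 12.1 and 15.6 FPKM under water and 9.44, 10.1 and 6.11 under salinity. Every root library thus exceeded every shoot library, and the 2 treatments overlapped in shoots but not in roots.

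**Figure D2:**
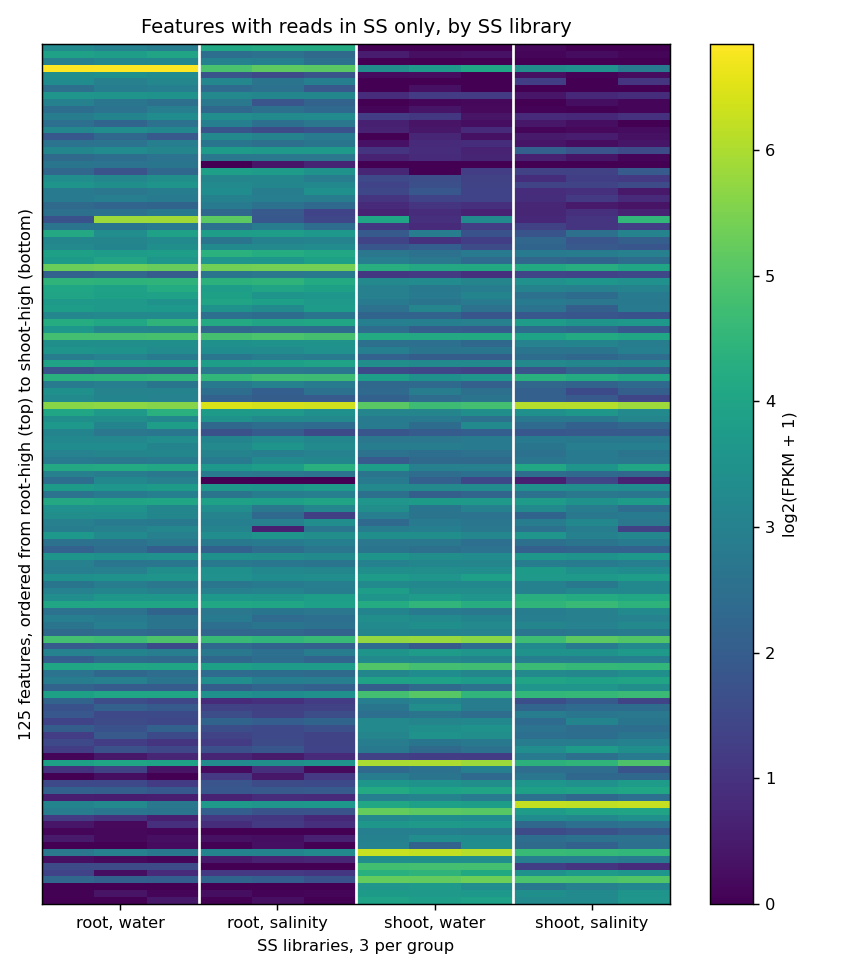
Heat map of the 125 features (rows) in the 12 SS libraries (columns, 3 per group, white lines between groups), coloured by log2(FPKM + 1). Rows run from features higher in roots at the top to features higher in shoots at the bottom, with a broad middle expressed in both, and 108 rows have reads in every library.

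Most members differed in level between roots and shoots of SS, at called shares near those of all features. In bulk tissue, fewer cells of a type and less RNA per cell cannot be told apart, here and below. Under water 47 members were higher in shoots, 67 were higher in roots and 11 did not pass the test, which ran on log2(FPKM + 1) with limma over all features and an adjusted p of 0.05. The share called, 91.2% of 125, was near the background of 88.8% of all 25478 features tested and of 90.7% of those at 5 FPKM in an SS group. Of all features 26.8% were higher in shoots and 62.0% higher in roots, and of those at that level 27.9% and 62.8%, beside 37.6% and 53.6% of the members. The libraries of the 2 tissues did not overlap for 112 members, 89.6%, against 89.4% of all features. Under salinity 47 were higher in shoots and 57 in roots of 122 tested, 85.2% against a background of 86.6% of all features and 88.4% of those at 5 FPKM, and 3 members were too low to be tested. The shares were 38.5% higher in shoots and 46.7% higher in roots, against 28.4% and 58.2% of all features and 29.7% and 58.8% of those at 5 FPKM. Here 103 members, 84.4%, had libraries of the 2 tissues that did not overlap, against 87.6% of all features. By at least 2-fold, 28 were higher and 38 lower in shoots under water, or 22.4% and 30.4%, against 15.0% and 30.9% of all features. These counts follow in part from the rule, since a member that reached the level in 1 group only had to differ from the others. Of the 122 members tested under both treatments, 43 were called higher in shoots in both and 57 higher in roots in both, and 0 changed sides in the values as deposited. Over all 24756 features tested under both, 97.2% of the 20082 called in both kept their side.

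The balance of tissues depended on scaling. Median-of-ratios scaling raised the median log2 difference of all features by 0.457 under water and by 0.343 under salinity. After it, 55 members were higher in shoots and 48 in roots under water, so that 53.4% of the called members were higher in shoots in place of 41.2%, while for all features the share went from 30.2% to 49.0%. Under salinity the shares for members were 45.2% as deposited and 54.3% after scaling, and for all features 32.8% and 48.7%. After scaling, 50 members were higher in shoots under both treatments, 40 were higher in roots under both and 1 changed sides. The members' median difference, shoot minus root, was -0.50 under water beside -0.47 for all features, and -0.21 beside -0.36 under salinity, where scaling turned it to 0.12.

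Zm00001d000930 was almost absent from SS roots and present in shoots. Its root values were 0, 0 and 0.354 FPKM under water and 0, 0.216 and 0 under salinity, on 0 to 3 reads per library. Its shoot values were 14.4, 13.0 and 14.02 FPKM under water and 8.70, 8.68 and 10.8 under salinity. Under water the difference was 3.74 on the log2(FPKM + 1) scale (SE 0.12, limma adjusted p = 2.84e-09). Novel01439 had 0 reads in all 6 root libraries and stood at 10.9, 11.8 and 9.18 FPKM in shoots under water and 5.82, 6.86 and 8.22 under salinity. It was the only member with 0 reads in every SS root library, and against a floor of 3 reads over those 6 libraries its mean in shoots was at least 338-fold higher. Zm00001d005583 was a stronger shoot transcript with some root expression, at 29.1, 28.7 and 30.5 FPKM in shoots and 3.62, 3.10 and 2.33 in roots under salinity (log2 difference 2.93, SE 0.11, limma adjusted p = 1.33e-08).

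Root-high members included Novel00512, with 14.2, 13.3 and 15.1 FPKM in roots under water and 0.452, 0.208 and 0.263 in shoots. The difference under water, shoot minus root, was -3.54 on the log2(FPKM + 1) scale (SE 0.09, limma adjusted p = 5.54e-10), and that of Zm00001d039648 was -3.12 (SE 0.14, limma adjusted p = 2.37e-08). Zm00001d048884 had 0 reads in shoots under water and 2, 0 and 0 reads in shoots under salinity, while its roots held 104 to 309 reads per library. Under salinity its difference was -4.10 (SE 0.07, limma adjusted p = 1.21e-10). A pair of members had 0 reads in all 6 SS shoot libraries and are named because they were so few, after their values were seen. Zm00001d042383 stood at 6.94, 7.93 and 7.96 FPKM in roots under water and 6.999, 6.82 and 4.89 under salinity, at least 117-fold above the shoot floor. Novel03783 stood at 5.27, 5.08 and 5.29 FPKM in roots under water and 0, 0.340 and 0.640 under salinity, so the 2 treatments did not overlap in roots. Under salinity Zm00001d039684 lay on the shoot side, at 73.5 ± 1.15 FPKM in shoots and 11.5 ± 0.428 in roots (SD, n = 3 libraries each). Zm00001d026795 lay on the root side, at 12.2 ± 1.61 FPKM in roots and 1.99 ± 0.807 in shoots under salinity (SD, n = 3 libraries each). Every tissue difference given here with an adjusted p kept its direction and its call after median-of-ratios scaling.

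In SS roots, a change under salinity passed the test for a minority of the members, and more of these fell than rose. Of 113 members tested, 15 rose, 30 fell and 68 did not pass, and 12 members were too low in roots to be tested. The called share of 39.8% lay below the background of 46.0% of all 24518 features tested, and of 50.2% of those at 5 FPKM in an SS group. The median absolute log2 change was 0.246 for members and 0.174 for all features. At 5 FPKM in 1 SS group only it was 0.649 for members and 0.402 for all. It was 0.206 against 0.205 in 2 groups, 0.202 against 0.229 in 3 groups and 0.187 against 0.145 in all 4. How far the spread between libraries adds to these medians, here and below, was not tested. Rises were 13.3% of the members tested against 23.3% of all features and 25.8% of those at 5 FPKM. Falls were 26.5% of the members against 22.7% and 24.4%. By at least 2-fold, 2 members rose and 11 fell, or 1.77% and 9.73%, against 1.78% and 1.56% of all features. Of those 11 falls, 8 were among the 30 tested members that reached 5 FPKM in 1 SS group only, a kind of feature that had to vary between groups. Among all 1207 tested features of that kind, 6.79% fell by at least 2-fold, against 26.7% of the members. Members that reached the level in all 4 groups showed 6 rises and 8 falls among 41, a called share of 34.1% against 49.2% for all 12359 such features. No test was made of these differences in share. The treatments did not overlap for 53 of the 113 members, 46.9%, against 56.6% of all features. Falls were 15 of the 71 Zm00001d members tested, 12 of the 38 added models and 3 of the 4 ENSRNA features, and rises were 11, 4 and 0. Shares over all features of each class were not computed, so no class difference is read from these counts. The ENSRNA members were at most 296 bases long, a range with most of the false calls on simulated data.

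Zm00001d026795 rose in SS roots from 3.76, 2.40 and 3.96 FPKM under water to 13.7, 12.5 and 10.5 under salinity (log2 change 1.61, SE 0.15, limma adjusted p = 5.65e-05). All salinity libraries lay above all water libraries, on 75 to 96 reads against 17 to 28. Zm00001d048884 rose from 8.76, 7.22 and 6.28 to 16.0, 17.1 and 16.8 FPKM (log2 change 1.08, SE 0.10, limma adjusted p = 4.75e-05). Among the falls, Zm00001d039648 went from 114 ± 0.840 to 31.9 ± 3.06 FPKM (SD, n = 3 libraries each), a log2 change of -1.80 (SE 0.06, limma adjusted p = 2.27e-07). Novel02906 fell from 9.42, 9.74 and 8.89 to 2.45, 1.87 and 2.45 FPKM (log2 change -1.67, SE 0.09, limma adjusted p = 2.19e-06). It was close to absent from shoots, with 0 to 5 reads per shoot library. In all 4 of these members the root libraries of the 2 treatments did not overlap.

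**Figure D3:**
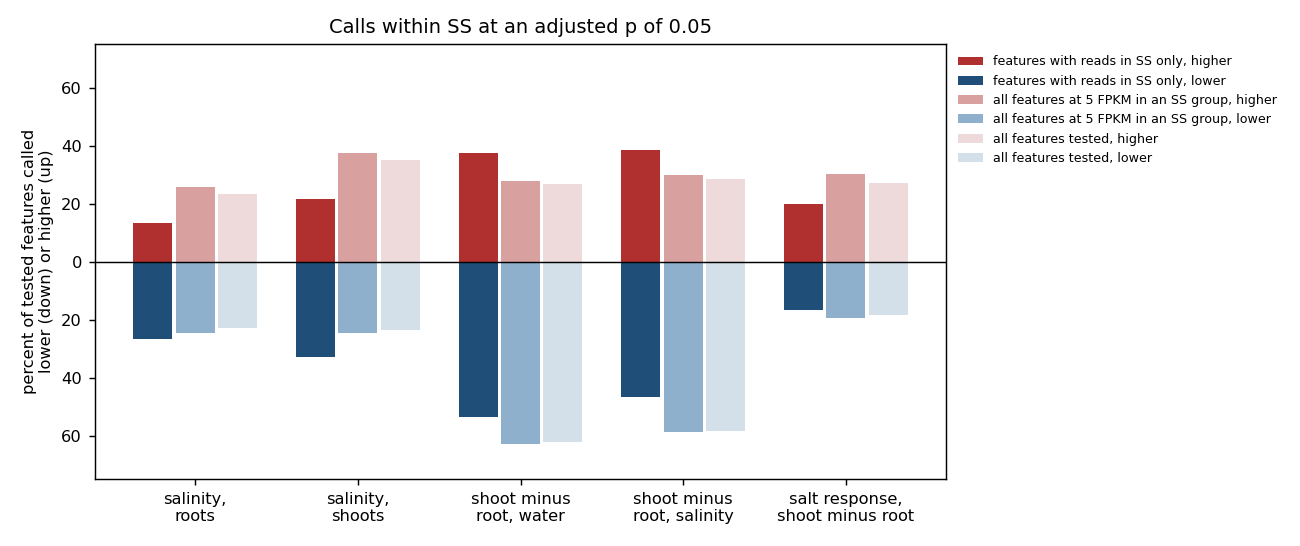
Percent of tested features called higher (up, red) or lower (down, blue) at an adjusted p of 0.05 in 5 comparisons within SS, for features with reads in SS only (dark), all features at 5 FPKM in an SS group (middle) and all features tested (pale). In both salt comparisons the dark bars are shorter above 0 and longer below it than the pale bars, with 13.3% rising and 26.5% falling in roots.

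In SS shoots, too, more members fell than rose under salinity. Of 107 members tested, 23 rose, 35 fell and 49 did not pass, and 18 were too low in shoots to be tested. The called share was 54.2% against a background of 58.7% of all 22390 features tested and 61.7% of those at 5 FPKM. The median absolute log2 change was 0.325 for members against 0.257 for all features, but this depended on the number of groups at the level. Members had the larger median at 5 FPKM in 1 SS group, 0.670 against 0.459, and in 2 groups, 0.323 against 0.282. They had the smaller one in 3 groups, 0.263 against 0.454, and in all 4, 0.207 against 0.225. Rises were 21.5% of the members, against 35.0% of all features and 37.3% of those at 5 FPKM. Falls were 32.7% of the members, against 23.7% and 24.4%. The treatments did not overlap for 58 of the 107 members, 54.2%, against 65.3% of all features. Median-of-ratios scaling left 19 rises and 40 falls among the members, and moved the share of called features that rose from 39.7% to 32.2% for members and from 59.6% to 50.9% for all. By at least 2-fold, 4 members rose and 8 fell, 3.74% and 7.48% of those tested, against 2.94% and 3.13% of all features. Members at 5 FPKM in all 4 groups showed 9 rises and 7 falls among 41, or 22.0% and 17.1%, a called share of 39.0%. Of all 12359 features at 5 FPKM in all 4 groups, 40.5% rose and 19.9% fell, and 60.3% were called. Falls outnumbered rises among members at the level in 1 group, 12 against 8, or 46.2% against 30.8% of those tested. Of all features at the level in 1 group, 33.2% fell and 34.3% rose. In 2 groups 13 members fell and 3 rose, or 44.8% and 10.3%. Falls also outnumbered rises among all features at the level in 2 groups, 34.0% against 23.1%. The lower share of rises was present in members at the level in all 4 groups as well. By class, 17 of 68 Zm00001d members rose and 23 fell, 6 of 35 added models rose and 11 fell, and of the 4 ENSRNA features 0 rose and 1 fell. Here too, shares over all features of each class were not computed.

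Zm00001d039684 gave the largest rise of the set in shoots, from 16.1, 13.7 and 13.4 FPKM under water to 73.03, 72.7 and 74.8 under salinity (log2 change 2.28, SE 0.07, limma adjusted p = 7.88e-09). Roots showed a smaller rise, from 7.45, 8.27 and 5.66 to 11.7, 10.96 and 11.7 FPKM (log2 change 0.63, SE 0.11, limma adjusted p = 0.00203). Novel03177 rose in shoots from 3.05, 4.19 and 4.83 to 10.8, 10.8 and 9.51 FPKM (log2 change 1.19, SE 0.12, limma adjusted p = 2.66e-05). In roots it stood at 3.14 ± 0.329 FPKM under water and 3.35 ± 0.299 under salinity (SD, n = 3 libraries each).

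Zm00001d044117 was nearly lost from SS under salinity. In shoots it fell from 26.3, 27.0 and 26.9 to 1.39, 1.06 and 0.816 FPKM (log2 change -3.74, SE 0.10, limma adjusted p = 3.40e-09), on 440 to 491 reads per library under water and 14 to 27 under salinity. In roots it went from 26, 32 and 32 reads to 0 reads in all 3 salinity libraries. Zm00001d051254 fell in shoots from 76.1, 73.5 and 67.0 to 23.6, 23.1 and 22.1 FPKM (log2 change -1.61, SE 0.06, limma adjusted p = 2.53e-08). In roots its levels were low and moved the other way, from 5.54, 6.93 and 5.77 to 7.58, 7.53 and 8.57 FPKM (log2 change 0.33, SE 0.09, limma adjusted p = 0.0139).

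**Figure D4:**
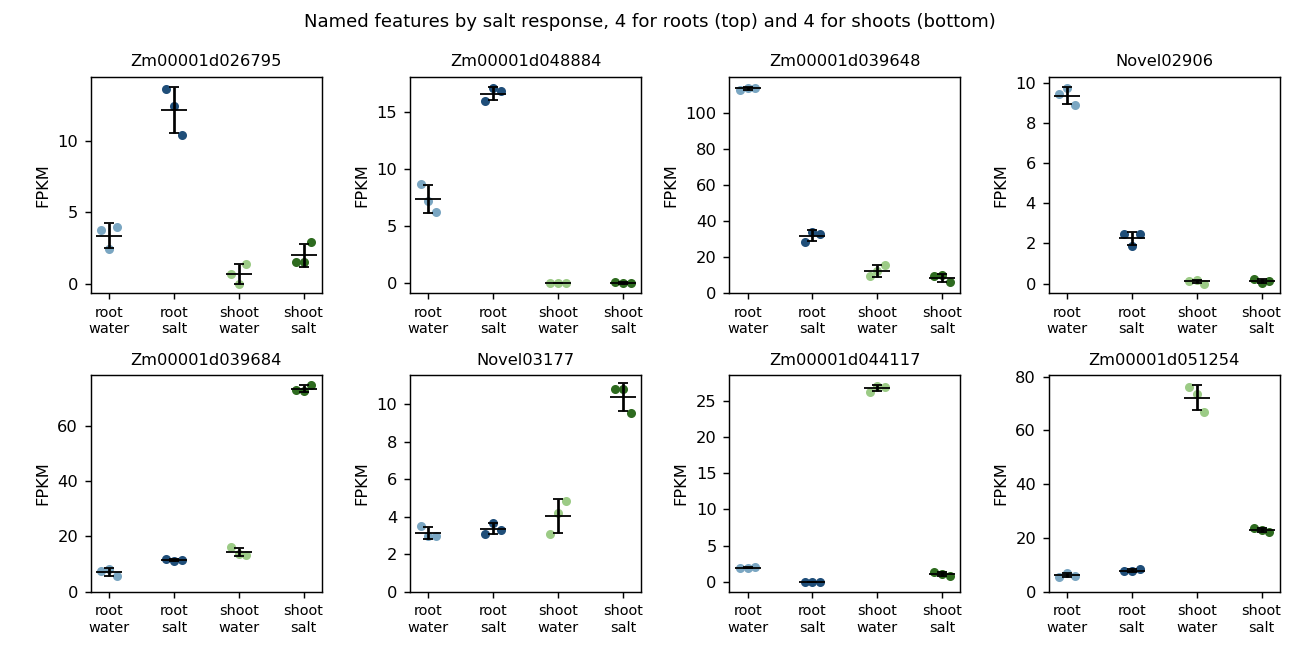
FPKM (y axes, each from about 0) of 8 members in the 4 SS groups (x axes); points are single libraries, horizontal lines the mean of 3 and bars 1 SD. Among members averaging at least 5 FPKM in the tissue with groups that do not overlap, the top row holds the largest called changes in roots and the bottom row those in shoots, where Zm00001d039684 climbs to 73.03, 72.7 and 74.8 and Zm00001d044117 drops to about 1.

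The root and shoot responses, which share no libraries, mostly pointed the same way where both were called. Of 95 members tested in both tissues, 25 were called in both, 26.3% against 30.7% of the 20686 features tested in both. Of the 25 members, 8 rose in both, 14 fell in both and 3 went opposite ways, each of them up in roots and down in shoots. The shared falls were 60.9% of the 23 members that fell in roots and 51.9% of the 27 that fell in shoots, against 41.9% and 40.8% over all features. For the shared rises the shares were 66.7% of 12 and 36.4% of 22, near the 58.4% and 38.7% over all features. In the same direction went 88.0% of the members called in both, beside 75.2% of the 6342 such features in the whole table. After median-of-ratios scaling, 7 members rose in both, 15 fell in both and 3 went opposite ways.

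**Figure D5:**
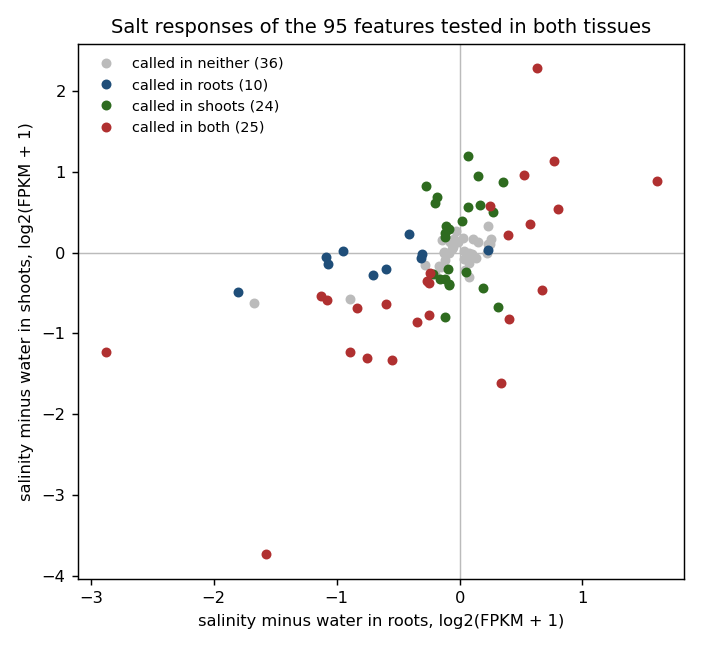
Change under salinity, salinity minus water on the log2(FPKM + 1) scale, in roots (x axis) and shoots (y axis) for the 95 members tested in both tissues, coloured by where limma called them. Of the 25 members called in both (red), 14 lie in the lower left and 8 in the upper right; 36 called in neither cluster near the origin.

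The difference between the tissues' salt responses was tested as an interaction in the 12 SS libraries. It passed for 46 of the 125 members, 36.8%, against a background of 45.3% of all 26304 features and 49.6% of those at 5 FPKM. The median absolute difference was 0.342 log2 units for members and 0.255 for all features. Among features at 5 FPKM in 1 SS group only, it was 0.717 for members and 0.497 for all. It was 0.279 against 0.305 in 2 groups, 0.238 against 0.358 in 3 groups and 0.213 against 0.214 in all 4. The larger median was thus seen only in members that had to vary between groups. The response was higher in shoots than in roots for 25 members and lower for 21. Of all features 27.0% and 18.3% were called so, and of those at 5 FPKM 30.2% and 19.4%. By at least 2-fold, 12 members were higher and 8 lower, 9.60% and 6.40%, against 2.66% and 3.81% of all features, with the same reservation on members that had to vary between groups. With voom on recovered reads, 32 members passed, 30 of them called by both. Over all features, voom called 10581 of 26304. Median-of-ratios scaling changed the balance to 19 higher and 33 lower, so neither direction can be said to prevail. The share of called features with the higher response in shoots went from 54.3% to 36.5% for members and from 59.7% to 44.2% for all features. Zm00001d039684 responded more in shoots by 1.65 log2 units (SE 0.14, limma adjusted p = 1.37e-06). Zm00001d039648 fell by 1.80 in roots and went from 12.4 ± 3.12 to 8.56 ± 2.15 FPKM in shoots (SD, n = 3 libraries each), where its call did not pass. Its responses differed by 1.32 (SE 0.24, limma adjusted p = 0.000703). In the other direction, the response of Zm00001d051254 was lower in shoots by -1.95 (SE 0.11, limma adjusted p = 2.68e-08), with opposite changes called in the 2 tissues. For Zm00001d044117 the difference was -2.17 (SE 0.12, limma adjusted p = 2.90e-08) on the log2(FPKM + 1) scale, but with voom it was 1.43 (limma adjusted p = 0.0762). Its root values ended at 0 reads, so the fold in roots is only bounded and the order of the 2 responses depended on the scale.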

How the data were processed

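RNA of SS and ST seedlings was sequenced in 24 libraries, in 8 groups of 3. Each library has a table, deposited by the authors, of FPKM values for 50202 features; 1 row per table has no name and was left out. TopHat2, Cufflinks, Cuffdiff and the build B73 RefGen v3 are named, with no role, per the submitters' processing notes; the Zm00001d identifiers belong to a later gene set, so no coordinates are given. For all 40811 detected features, a length and library totals were found that turn every deposited FPKM value into whole reads within 9.8e-05 reads. The sources used do not state if these are reads or read pairs.

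Values were taken as log2(FPKM + 1) and contrasts fitted with limma (version 3.58.1, under R 4.3.3), with variances following mean expression. Features entered a fit when 3 or more of its libraries had FPKM of 1 or more, and p-values were adjusted over all of them by Benjamini-Hochberg. Only SS libraries entered, because the members' ST values of 0 would understate the spread: 6 libraries for each salt or tissue contrast and 12 for the interaction. Fold changes on this scale understate changes of low features. On simulated data the fit made more false calls than intended, mostly in features under 300 bases, where few reads lie behind an FPKM. Calls were therefore repeated with limma-voom on recovered reads; 14 members are that short.

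Members and tests were chosen with earlier results of these data known. Named members were the 2 with the highest SS mean and, per contrast, the 2 largest called changes per direction with a mean of at least 5 FPKM and, except for the interaction, groups that do not overlap. The planned lists by product could not be made, since 0 members matched the reference table. Same-numbered libraries showed no clear shared deviation (18 pairs correlated at -0.103 to 0.0907), so the main fits did not pair them. Whether they came from the same plants is not stated in the sources used. Figures were drawn with matplotlib 3.10.9, and other steps used pandas 2.3.3 and numpy 2.4.6 in Python 3.11.15.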

Additional observations from a re-analysis of the deposited data

Results flagged for a closer look

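In 46 members, 36.8% of the set, the interaction test found that roots and shoots of SS differed in how they changed under salinity. The share lay below the 45.3% of all features and the 49.6% of those at 5 FPKM in an SS group. The median absolute difference was larger for members, 0.342 log2 units against 0.255 for all features. That held only through members at 5 FPKM in 1 SS group, with 0.717 against 0.497 for all such features. In all 4 groups it was 0.213 against 0.214. With voom the count was 32. The differences of the named members, shoots minus roots on the log2(FPKM + 1) scale, were 1.65 for Zm00001d039684, 1.32 for Zm00001d039648, -2.17 for Zm00001d044117 and -1.95 for Zm00001d051254. That of Zm00001d044117 was not kept by every test.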

How the results depend on the processing

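The size of the set depended on its thresholds: 472 features had 0 ST reads and an SS group mean of at least 1 FPKM, 54 at a mean of at least 10, 112 with FPKM of at least 5 in each library of an SS group, and 405 when an ST mean under 0.1 FPKM per group was allowed in place of 0. The counts of called members stayed within 1.5 times of the reported ones in all 72 refits, which changed pseudocount, filter, scaling, test or libraries. Without each library in turn they ran from 36 to 41 for salinity in roots, 50 to 57 in shoots, 99 to 104 and 85 to 95 for the tissues under water and salinity, and 44 to 51 for the interaction; in the tissue contrasts a group of 2 cannot meet the filter alone. With voom, 45, 59, 111, 103 and 32 members were called, of which 41, 55, 111, 102 and 30 were called as reported. With the replicate number as a block the counts were 46, 58, 113, 107 and 48, and it moved no count by over 1.5 times. The interaction gave 25 higher and 21 lower members, but 21 and 13 with a pseudocount of 0.1; among salinity rises in shoots, 15 remained testable and called at FPKM of at least 5 in 3 libraries, against 23. Of 276 refits of the 20 named results, 274 kept direction and call. The exceptions were the interaction of Zm00001d044117, at -0.15 with a pseudocount of 0.1 (limma adjusted p = 0.613) and reversed at 1.43 with voom (limma adjusted p = 0.0762); its roots have 0 reads under salinity. In features at 0, voom and a pseudocount of 0.1 gave larger fitted differences, which are no bound.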

Other observations

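A single member had the largest SD of the set in each of the 4 SS groups, and it is named after its values were seen. Zm00001d018010 stood at 2.31, 56.8 and 57.3 FPKM in roots under water, 33.6, 2.63 and 1.72 in roots under salinity, 15.6, 0.896 and 8.52 in shoots under water and 0.699, 1.06 and 22.3 in shoots under salinity. In every SS group its libraries fell on both sides of a gap, with 6 libraries at 8.52 FPKM or more and 6 at 2.63 or less. The higher values rest on 158 to 1018 reads in a library and the lower ones on 15 to 51, and neither treatment nor tissue separated them. Novel02938, also named after its values were seen, stood at 7.41, 0.511 and 5.49 FPKM in roots under salinity and 4.98, 6.30 and 1.57 in shoots under salinity, on 62, 5, 50, 54, 63 and 15 reads.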
